A study of Mus musculus with 9 samples.

Results

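The leptin receptor gene Lepr, its upstream neighbour Leprot, the transcription factor gene Stat3 and the feedback genes Socs3 and Ptpn1 were followed in the renal cortex of diabetic mice. These 5 genes were taken by symbol from 21950 protein-coding genes in the deposited mRNA values. They have 12 of the 50660 mRNA transcripts, and the 4 transcripts of Lepr were read separately, while FPKM (fragments counted per unit of transcript length and of mapped library size) was summed per gene for the others. RNA was sequenced from 3 male mice in each of 3 groups, 1 library per mouse, at 15 weeks of age. The control group held db/m littermates, which carry a single db copy of Lepr and are not diabetic. The dbdb and dbR groups carried db on both chromosomes and were diabetic, and dbR mice were given rosiglitazone, which activates the nuclear receptor PPARγ, by gavage. The dose was 20 mg/kg/day and treatment ran for 8 weeks, starting at an age of 7 weeks. The dbdb mice received vehicle over the same weeks, and whether control mice were gavaged with vehicle is not clear from the sources used here. All mice had the C57BL/KsJ background. The control level of Lepr therefore includes RNA from 1 db copy, and no mouse with both copies normal was measured.

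Leptin, the hormone of fat cells, binds a receptor that is spliced into forms with the same outer part and different ends inside the cell. The long form holds the tyrosine at which STAT3 docks after JAK2 has phosphorylated the receptor; STAT3 then enters the nucleus and switches on genes such as Socs3. SOCS3 binds the active receptor complex and the phosphatase PTP1B, encoded by Ptpn1, removes phosphate from JAK2, so both limit the signal. The db allele is a single base change that creates a splice site in the terminal exon of a short form; the inserted bases end the long form early, while the coding part of the short form is left intact. In the kidney the short forms are the common ones, and STAT3 there also answers cytokines of the interleukin 6 family.

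The ends of the 3 complete Lepr transcripts show what separates them. Lepr lies at chr4:101717404-101815352 on the plus strand (GRCm38, GENCODE M21). Lepr-201, Lepr-202 and Lepr-203 share 17 exons with 3146 bases, and each has bases in no other of the 3, namely 905, 188 and 2320. Lepr-201 encodes the long form of 1162 residues, Lepr-202 a form of 892 residues and Lepr-203 the short form of 894 residues. Below are the last 27 coding bases before the stop codon, with the bases particular to each transcript in capitals. The first stretch is chr4:101815240-101815266, the second chr4:101792053-101792079, and the last is joined across an intron between chr4:101792059-101811362.
Lepr-201: GAGAATAAGATGTGTGACTTAACTGTG
Lepr-202: ggactgaatttccaaaagGTCACTGTT
Lepr-203: aatttccaaaagAGAACGGACACTCTT

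A tyrosine codon followed by a pair of any codons and a glutamine codon, the pattern that STAT3 recognises, was found in frame 3 times in Lepr-201 and 2 times in each short form. The 2 copies in every form lie at tyrosine codons 302 and 605, in the part of the receptor outside the cell. The copy at codon 1138 is in bases that only Lepr-201 holds (chr4:101815183-101815212), with the tyrosine and glutamine codons in capitals.
Lepr-201, codon 1138: tttgtacctTACatgcccCAAtttcaaacc
The fourth transcript, Lepr-205, has 208 bases with an incomplete coding part and was listed at 0 in all 9 libraries. None of these models is the db splice product, so fragments from it could only be assigned to the listed transcripts, and the FPKM of Lepr-201 in dbdb and dbR mice is not a level of working receptor.

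From the smallest steps of the FPKM values, depth was estimated at between 25.1 M and 31.3 M fragments in each library, and mitochondrial transcripts held 26.9% to 32.8% of the mRNA FPKM. Genes were called at a Benjamini-Hochberg adjusted p under 0.05 in limma, fitted to log2(FPKM + 0.1) over 14537 genes, and the spread measured is that between mice of a group. All 3 comparisons use the same 9 libraries, so that dbdb mice enter both dbdb vs. control and dbR vs. dbdb. The 5 proximal tubule markers, Slc34a1 among them, summed to an FPKM of 2212 to 2956 in every library, so the defining markers of cortex were present. Markers of several cell types differed between groups, and their values are given with Lepr, the receptors and the STAT3 targets below. In whole cortex, fewer cells of a type and less RNA per cell cannot be told apart.

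Lepr fell in both diabetic groups against control mice, and its values in dbdb and dbR overlapped. The summed FPKM of Lepr was 1.19, 1.05 and 1.23 in the control libraries, 0.652, 0.331 and 0.304 in dbdb and 0.512, 0.39 and 0.335 in dbR. Every control library lay above all 6 diabetic libraries, and the dbdb and dbR values overlapped. The mean fell from 1.16 ± 0.0954 (SD, n = 3) in control to 0.429 ± 0.193 (SD, n = 3) in dbdb, a log2 fold change of -1.31 (standard error 0.25, 95% interval -1.86 to -0.75, adjusted p = 0.0043, limma). In dbR it was 0.412 ± 0.0906 (SD, n = 3), with the same log2 fold change of -1.31 against control (adjusted p = 0.00453, limma). Between dbR and dbdb the log2 difference was -0.00 with a 95% interval of -0.56 to 0.55 (adjusted p = 0.998, limma), so a change of up to about that size was not resolved. The pseudocount of 0.1 understates the change of a gene at this level: the ratio of the means was 0.371 in dbdb and 0.356 in dbR.

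**Figure D1:**
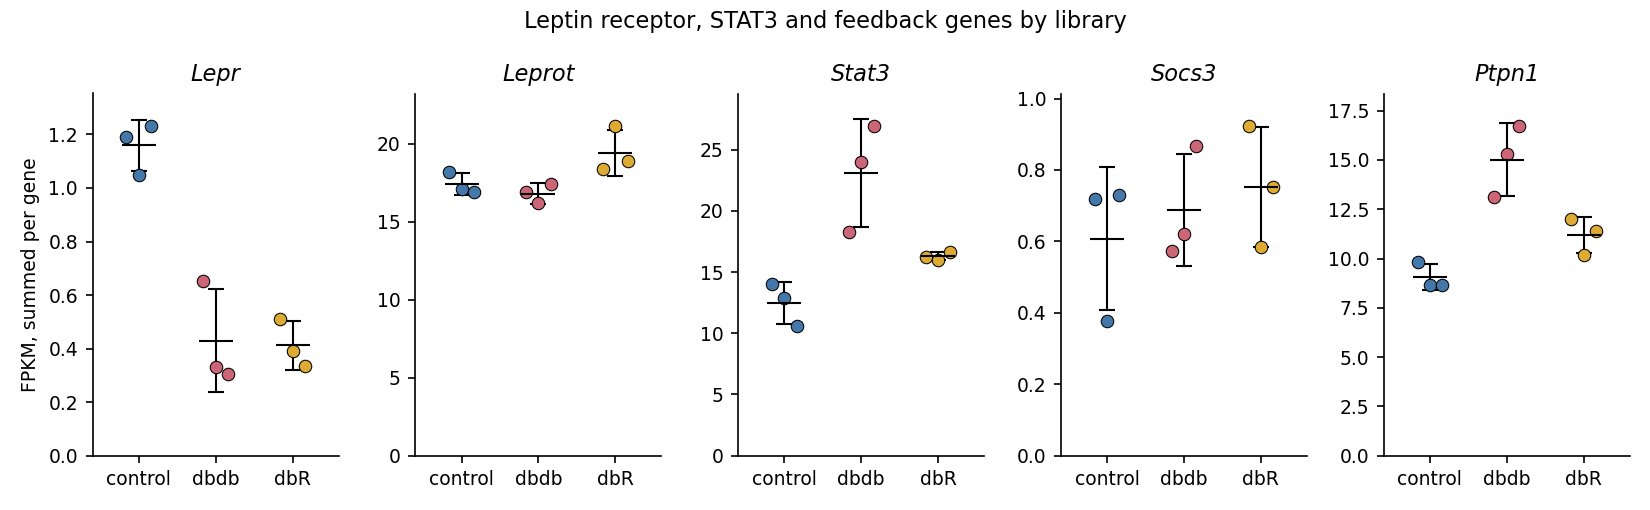
FPKM summed per gene (vertical axes, each from 0) of Lepr, Leprot, Stat3, Socs3 and Ptpn1 in the 3 control, 3 dbdb and 3 dbR libraries; points are libraries, the bar is the mean and the whiskers are 1 SD. Lepr is at 1.05 or more in control and at 0.652 or less in the other groups, Stat3 and Ptpn1 are highest in dbdb with dbR between, and the Socs3 groups overlap.

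Over all genes, 3 of the 5 passed the test in dbdb vs. control, where 26.4% of all genes did: Lepr fell (13.4% of all genes fell) and Stat3 and Ptpn1 rose (13.1% of all genes rose). With mitochondrial transcripts left out of the scaling, the median of all genes in that comparison moved from -0.00 to 0.14 on the log2 scale, and 77.1% of the genes called were higher in place of 49.5%; Lepr, Stat3 and Ptpn1 passed in the same direction. In dbR vs. control 1 of 5 passed, Lepr, which was lower, where 24.1% of all genes passed and 11.8% were lower. In dbR vs. dbdb 0 of 5 passed in limma, where 0.743% of all genes did; at an unadjusted p under 0.05 the count was 3 of 5, against 17.5% of all genes. Groups did not overlap for 3 of the 5 in dbdb vs. control (42.4% of all genes), for 3 in dbR vs. dbdb (22.7%) and for 4 in dbR vs. control (41.9%).

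Among the Lepr transcripts, most of the signal and of the fall was assigned to the short form Lepr-203. Its FPKM was 1.08, 0.923 and 0.993 in control, 0.360, 0.331 and 0.232 in dbdb and 0.464, 0.347 and 0.194 in dbR, from an estimated 133 to 165 fragments per library in control and 26.9 to 80.5 in the others. The lowest control library was above every dbdb and dbR library. In the fit over 31858 transcripts, which included long non-coding RNAs, the log2 fold change of Lepr-203 was -1.44 in dbdb vs. control (standard error 0.31, adjusted p = 0.0249, limma) and -1.39 in dbR vs. control (adjusted p = 0.0311, limma). In dbR vs. dbdb it was 0.06, with a 95% interval of -0.66 to 0.77 (adjusted p = 0.976, limma). The size of the fall held when a library was left out, with log2 fold changes from control of -1.54 to -1.30 in dbdb and -1.60 to -1.13 in dbR. The adjusted p went above 0.05 in dbdb vs. control without control replicate 1, 2 or 3 or dbdb replicate 2 or 3, and reached 0.0763. In dbR vs. control it did so without control replicate 1, 2 or 3 or dbR replicate 2 or 3, and reached 0.0917.

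The long form Lepr-201 was close to the limit of detection in every group. Its FPKM was 0.113, 0.0328 and 0.0378 in control, 0.253, 4.17e-14 and 0.0721 in dbdb and 0.0478, 0.0430 and 0.104 in dbR. The highest and the lowest of these values are both from dbdb mice. At most 27 estimated fragments, in dbdb replicate 1, stand behind a value, and the mean was under the 0.1 FPKM needed for the test. Lepr-202 was also under that level: it ranged from 2.65e-05 to 0.197 in control, from 1.44e-06 to 0.0380 in dbdb and from 2.27e-06 to 0.0372 in dbR. With no filter on level, dbdb vs. control gave a log2 fold change of 0.21 for Lepr-201 (adjusted p = 0.929, limma) and -0.69 for Lepr-202 (adjusted p = 0.439, limma), over 46066 transcripts. Cufflinks had only the ends of the transcripts to divide their shared fragments by, so the values of the rare forms depend on few fragments.

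**Figure D2:**
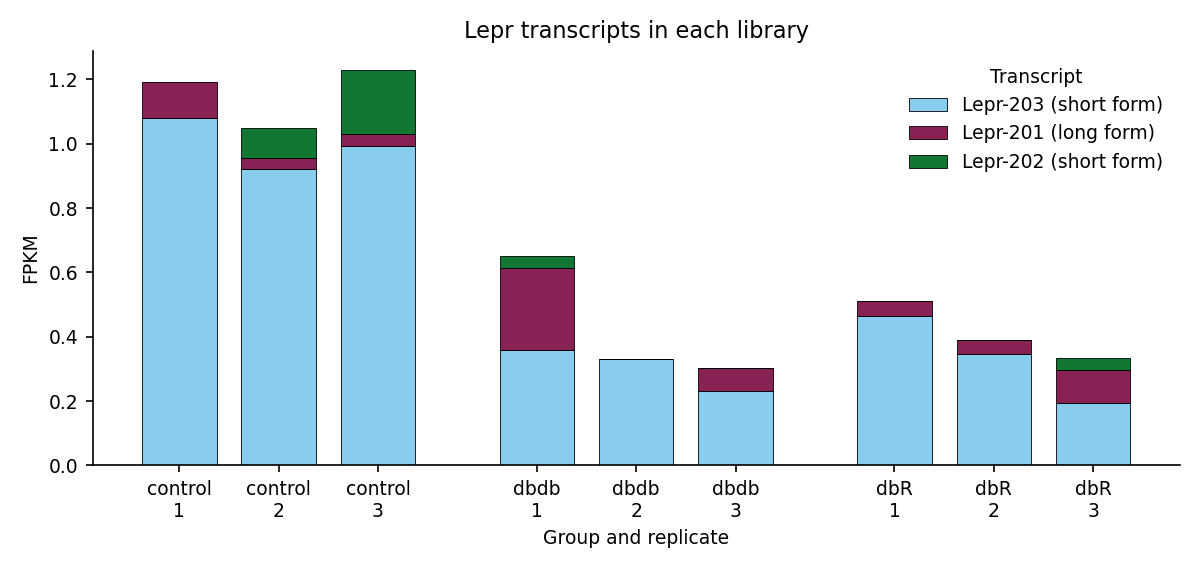
FPKM of the 3 complete Lepr transcripts (vertical axis), stacked, in each library (horizontal axis, group and replicate). The short form Lepr-203 makes up most of each bar and is taller in the control libraries (0.923 to 1.08) than in dbdb and dbR (0.194 to 0.464), while the long form Lepr-201 is largest in dbdb replicate 1 (0.253).

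The division between the transcripts was not shown to differ between groups. Lepr-203 held 90.5%, 88% and 80.9% of the summed Lepr FPKM in control, 55.3%, 100% and 76.3% in dbdb and 90.7%, 88.9% and 57.8% in dbR. The diabetic groups reached both above and below the control range. The mean shares were 86.4% ± 4.99 in control, 77.2% ± 22.4 in dbdb and 79.1% ± 18.5 in dbR (SD, n = 3 each), with two-sided exact permutation p-values of 0.6 for dbdb vs. control and 0.9 for each other comparison. For Lepr-201 the mean share was 5.24% ± 3.7 in control libraries, 20.9% ± 19.6 in dbdb and 17.1% ± 12.1 in dbR (SD, n = 3 each; exact permutation p = 0.4 for dbdb vs. control and 0.2 for dbR vs. control). The smallest p that 3 libraries against 3 allow is 0.1, and at this depth a shift between the forms was not detectable.

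Leprot, whose protein (endospanin) holds leptin receptors inside the cell, did not pass in any comparison. It lies at chr4:101647718-101659364, and in this annotation it ends 58039 bases before Lepr begins; no annotated lncRNA gene overlaps the stretch from Leprot to Lepr. Its FPKM was 18.2, 17.1 and 16.9 in control, 16.9, 16.2 and 17.4 in dbdb and 18.4, 21.1 and 18.9 in dbR. The control and dbdb values overlapped, and all 3 dbR values were above both. The log2 fold change was -0.04 in dbdb vs. control (95% interval -0.20 to 0.11, adjusted p = 0.668, limma), and with mitochondrial transcripts left out of the scaling it was 0.10 (adjusted p = 0.327, limma). In dbR vs. dbdb it was 0.20 (unadjusted p = 0.0141, adjusted p = 0.17, limma) and in dbR vs. control 0.16 (adjusted p = 0.122, limma; 0.0373 with mitochondrial transcripts left out). The log2 ratio of Lepr to Leprot was taken with 0.1 FPKM added to each gene, which understates the fall of a gene as rare as Lepr. This ratio was -3.82, -3.90 and -3.67 in control, -4.50, -5.24 and -5.44 in dbdb and -4.92, -5.43 and -5.45 in dbR. All control ratios were above all others, by a mean of 1.26 over dbdb and 1.47 over dbR in log2 units, each at the smallest exact permutation p of 0.1, and dbR and dbdb overlapped (exact permutation p = 0.6).

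Endothelial and immune markers moved with Lepr in dbdb mice. Of 6 endothelial markers 4 fell in dbdb vs. control (Pecam1, Cdh5, Kdr and Emcn), where 13.4% of all genes fell, and their summed FPKM was 120 to 132 in control, 90.2 to 98.4 in dbdb and 125 to 146 in dbR. Every dbR sum was above every dbdb sum, and the dbR and control ranges overlapped. The immune markers Ptprc, Cd68 and Adgre1, 3 of the 4 tested, also fell in dbdb vs. control beside that 13.4%; their list summed to 6.89 to 9.24 in control, 2.88 to 3.85 in dbdb and 4.72 to 5.11 in dbR. Of the 3 fat cell markers tested 1 fell in dbdb vs. control beside that 13.4%, Cfd (-2.96, adjusted p = 0.0138, limma). This call was lost without control replicate 1 or 3. Cfd was 1.64, 0.106 and 1.88 in control, at most 0.0518 in dbdb and 0 in dbR (-3.16 against control, adjusted p = 0.0108, limma). Adipoq and Plin1 were at 0 in every dbdb library, but at most 0.265 and 0.105 in control, and Adipoq did not pass (adjusted p = 0.0811, limma). The list summed to 0.294 to 2.64 in control, at most 0.1 in dbdb and 0.0767 to 0.701 in dbR. The call of Cdh5 was lost in 9 of 17 alternatives, without any control replicate, dbdb replicate 2 or 3 or dbR replicate 1 among them, and that of Kdr without control replicate 2 and with mitochondrial transcripts left out. The part of endothelial, immune and fat cells in the level of Lepr was not tested.

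Stat3 rose in dbdb mice, and its values in dbR mice lay between the other groups. The gene lies at chr11:100885098-100939540 on the minus strand. Its FPKM was 14.0, 12.9 and 10.6 in control, 18.3, 24 and 26.9 in dbdb and 16.2, 16 and 16.6 in dbR. The 3 groups did not overlap, and the dbdb mice varied most. From 12.5 ± 1.71 in control to 23.1 ± 4.4 in dbdb (SD, n = 3 each) the log2 fold change was 0.87 (standard error 0.14, 95% interval 0.56 to 1.18, adjusted p = 0.00159, limma), which is 1.83-fold. Against dbdb, it was -0.48 in dbR (95% interval -0.79 to -0.18, unadjusted p = 0.00572), which did not pass over all genes (adjusted p = 0.121, limma). In dbR vs. control it was 0.39 (adjusted p = 0.0666, limma), and this call turned with the setting: it passed at 0.0266 when only the control and dbR libraries were fitted, at 0.0447 after scaling to the 75th percentile, and at 0.0217 and 0.0427 without dbdb replicates 1 and 3, all in limma.

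Both main Stat3 transcripts rose in dbdb mice. Stat3-203, which encodes the full-length protein of 770 residues, had an FPKM of 12.8, 11.2 and 9.20 in control, 15.3, 19.3 and 23.2 in dbdb and 13.3, 12.8 and 13.8 in dbR. Stat3-201, of 769 residues and with a shorter last exon, had 0.941, 1.42 and 1.13 in control, 2.49, 3.84 and 3.16 in dbdb and 2.43, 2.74 and 2.50 in dbR. For Stat3-201 the dbR values lay with dbdb and above every control library, whereas for Stat3-203 the lowest dbR library was just above the highest control library, both rounding to 12.8. In dbdb vs. control the log2 fold changes were 0.79 for Stat3-203 (adjusted p = 0.0186, limma) and 1.36 for Stat3-201 (adjusted p = 0.00434, limma). In dbR vs. control they were 0.28 (adjusted p = 0.349, limma) and 1.09 (adjusted p = 0.0131, limma). Stat3-202, of 722 residues, the length of the shorter beta form, stayed between 0.199 and 0.591 in all libraries (0.53 in dbdb vs. control, adjusted p = 0.451, limma). Of the 12 transcripts of the 5 genes 9 were tested; 4 passed in dbdb vs. control (9.23% of all transcripts did), 2 in dbR vs. control (8.3%) and 0 in dbR vs. dbdb in limma (0.0126%; 3 of 9 at an unadjusted p under 0.05, where 10.2% of all did).

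Ptpn1, at chr2:167932057-167979385, followed the order of Stat3. This phosphatase also acts on the insulin receptor. Its single transcript had an FPKM of 9.84, 8.67 and 8.68 in control, 13.1, 15.3 and 16.7 in dbdb and 12, 10.2 and 11.4 in dbR. The 3 groups did not overlap, with dbR between. The mean rose from 9.06 ± 0.671 in control to 15.0 ± 1.85 in dbdb (SD, n = 3 each), a log2 fold change of 0.72 (standard error 0.10, 95% interval 0.49 to 0.95, adjusted p = 0.000904, limma). Against dbdb, the log2 fold change in dbR was -0.42 (95% interval -0.65 to -0.19, unadjusted p = 0.00224, adjusted p = 0.0834, limma). In dbR vs. control it was 0.30 (adjusted p = 0.0593, limma), and it passed at 0.0435 with only those groups fitted, at 0.0356 after scaling to the 75th percentile and at 0.035 and 0.0444 without dbdb replicates 1 and 3.

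Socs3, the feedback inhibitor that STAT3 induces, did not pass the test in any comparison. It lies at chr11:117966079-117970047 on the minus strand, and its 1 transcript has 2552 bases. A pair of half-sites for STAT proteins, TTCNNNGAA, which reads the same on both strands, starts 154 bases before the RefSeq gene start, in the promoter window of 300 bases (GRCm38.p6). It is shown with flanking bases, the half-sites in capitals, from chr11:117969502-117969530 on the minus strand.
Socs3 promoter: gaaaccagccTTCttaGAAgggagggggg
Of the 6 promoter windows of the 5 genes 1 held this pattern, against 8.3% of 32851 promoters of that length. In the GENCODE coordinates above, Socs3 begins at 117970047, so there the site lies inside the gene. The 1 Socs3 transcript with values begins at 117969186, so the site lies upstream of that transcript. The FPKM of Socs3 was 0.718, 0.378 and 0.730 in control, 0.574, 0.621 and 0.866 in dbdb and 0.922, 0.585 and 0.753 in dbR. Each group overlapped both others, and control replicate 2 was the lowest library. The log2 fold change was 0.18 in dbdb vs. control (95% interval -0.40 to 0.75, adjusted p = 0.649, limma), 0.12 in dbR vs. dbdb (adjusted p = 0.859, limma) and 0.29 in dbR vs. control (95% interval -0.28 to 0.87, adjusted p = 0.452, limma). Without control replicate 2 the first of these was -0.08 and the last 0.03. The interval of dbdb vs. control takes in a rise as large as that of Ptpn1, so these libraries do not show that Socs3 was the same.

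**Figure D3:**
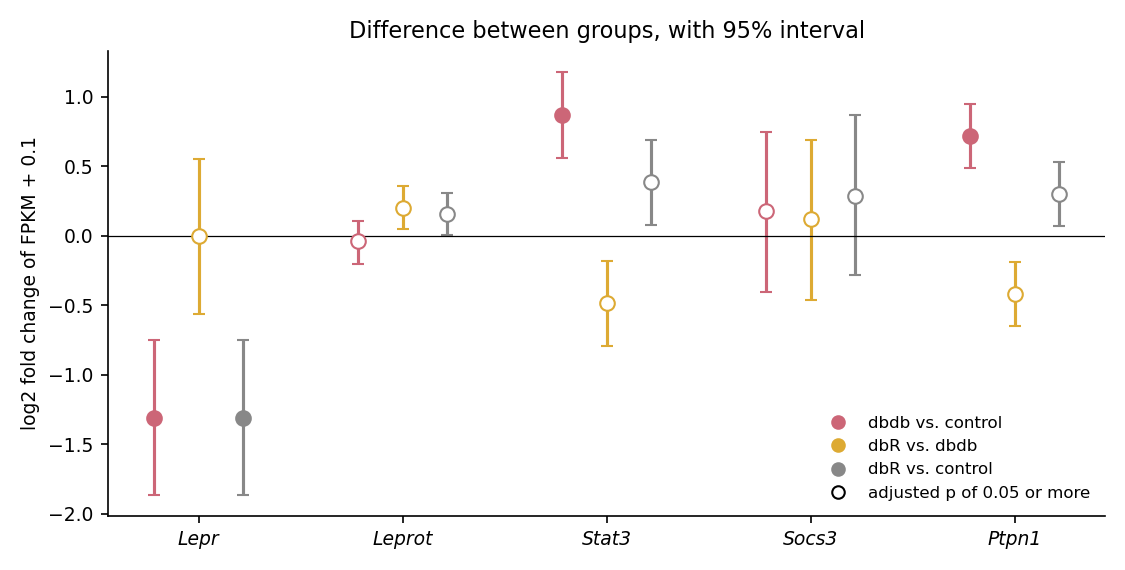
log2 fold change of FPKM + 0.1 (vertical axis) for the 5 genes (horizontal axis) in the 3 comparisons, with 95% intervals from limma; filled points passed an adjusted p of 0.05 over 14537 genes. Lepr is at -1.31 in both diabetic groups against control, Stat3 and Ptpn1 are at 0.87 and 0.72 in dbdb vs. control and at -0.48 and -0.42 in dbR vs. dbdb, and the intervals of Socs3 cross 0.

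Since FPKM is per length, the levels of the genes can be set in order within a group. In control libraries the order was Leprot, Stat3, Ptpn1, Lepr and Socs3, and no neighbours in this order overlapped. In dbdb libraries Stat3 (18.3 to 26.9) was above Leprot (16.2 to 17.4), with Ptpn1 below, from 13.1 to 16.7, and overlapping Leprot. Socs3 (0.574 to 0.866) and Lepr (0.304 to 0.652) overlapped in dbdb and were the lowest. In dbR libraries Leprot (18.4 to 21.1) was again above Stat3 (16 to 16.6), and Ptpn1 (10.2 to 12) followed. Socs3 (0.585 to 0.922) was above every dbR value of Lepr (0.335 to 0.512), the reverse of the control order.

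The rest of the pathway was read from 6 lists of 81 genes, of which 80 were in the files and 69 were tested. In dbdb vs. control 17 rose and 7 fell, where 13.1% of all genes rose and 13.4% fell. The count in dbR vs. control was 9 higher and 9 lower, where 12.3% of all genes rose and 11.8% fell, which is near the share among these genes. For dbR vs. dbdb 0 of 69 passed in limma, where 0.743% of all genes did, and 14 of 69 had an unadjusted p under 0.05, which is near the 17.5% of all genes. Of the calls, 15 of 24 in dbdb vs. control and 8 of 18 in dbR vs. control passed in every alternative that could be run, and the others are named below with what ended them. The median log2 fold change over the lists was 0.07 in dbdb vs. control, beside -0.00 over all genes.

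The ligands were scarce in cortex. Lep, the leptin gene, reached at most 0.0343 FPKM in a control library, Il6 at most 0.0519, and 7 of the 10 ligand genes were under the level tested. Ctf1, which encodes cardiotrophin, a ligand of the interleukin 6 family, rose from 1.96 in control to 2.91 in dbdb (log2 fold change 0.55, adjusted p = 0.016, limma) and was 2.86 in dbR. This only call of the list was lost in dbdb vs. control without control replicate 1 or dbdb replicate 2 (adjusted p up to 0.0611, limma), and in dbR vs. control without control replicate 1 or dbR replicate 2 (up to 0.0709). Cntf and Clcf1 did not pass (-0.18 and 0.20 in dbdb vs. control).

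Of 13 receptor genes 5 fell and 1 rose in dbdb vs. control, where 13.4% of all genes fell. Their median log2 fold change was -0.27, but -0.12 with a pseudocount of 1 or with mitochondrial transcripts left out of the scaling, and -0.03 over the 11 genes with at least 1 FPKM. Il6st encodes gp130, the signalling chain that the interleukin 6 family shares. Its FPKM was 45.4 to 47.1 in control and 34.0 to 37.7 in dbdb, without overlap, a log2 fold change of -0.36 (adjusted p = 0.00141, limma). Ghr, the growth hormone receptor and the most abundant of the list, had the lowest adjusted p: it was 365 to 438 in control, 191 to 213 in dbdb and 197 to 216 in dbR. Its log2 fold change against control was -1.02 in dbdb and -0.98 in dbR. As with Lepr, the dbR values of Ghr lay with those of dbdb (0.03 in dbR vs. dbdb, adjusted p = 0.868, limma).

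Il22ra1, the interleukin 22 receptor of epithelia, fell by 0.63 on the log2 scale, from 2.55 to 1.61 FPKM. Il10ra and Il27ra, which are receptors of white blood cells, fell by 1.05 and 0.82 in dbdb vs. control. The call of Il27ra was lost with only the groups compared and without control replicate 1 or 3 or dbdb replicate 2 (adjusted p up to 0.0801, limma), and that of Il10ra in dbR vs. control (-0.62) was lost in 12 of 17 alternatives, with control replicate 1, 2 or 3, dbR replicate 1 or 2 or dbdb replicate 2 left out among them. The immune markers fell in the same mice, with Ptprc at 3.68 to 4.49 in control and 1.25 to 1.97 in dbdb, and their part in these receptor values was not tested. Cntfr, which binds ciliary neurotrophic factor together with gp130, rose from 1.35 to 3.11 FPKM in dbdb (log2 fold change 1.15, adjusted p = 0.000673, limma) and was 3.01 in dbR. Osmr, the oncostatin M receptor, passed in dbR vs. control only (0.78, adjusted p = 0.0183, limma; 0.25 in dbdb vs. control), and the difference between those comparisons, dbR vs. dbdb, did not pass (0.53, adjusted p = 0.209, limma). Its call was lost without control replicate 2 or dbR replicate 2 or 3 (adjusted p up to 0.068, limma). Of the 5 markers of mesangium, smooth muscle and fibroblasts 1 passed in dbR mice, Pdgfrb, where 24.1% of all genes did against control and 0.743% against dbdb. Pdgfrb was 0.41 against control and 0.69 against dbdb (adjusted p = 0.0131 and 0.0234, limma), lost against control without dbR replicate 2 and against dbdb in 6 of 17 alternatives, without dbR replicate 2 or 3 or dbdb replicate 1 or 2 among them. The others did not pass: against control and against dbdb, Acta2 was -0.43 and -0.07, Myh11 -0.34 and -0.18, Col1a1 -0.13 and 0.67, and Dcn 0.31 and 0.55. That list summed to 23.3 to 44.2 FPKM in control, 20.1 to 28.7 in dbdb and 26.1 to 36.5 in dbR, and its part in the level of Osmr was not tested. Leprotl1, the relative of Leprot, was 8.38 to 9.05 in control and 8.61 to 9.29 in dbdb, and Lifr was 23.3 to 25.3 and 23.4 to 26.3, and neither passed.

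Among the 10 kinases and adaptors, Jak2, the kinase bound to the leptin receptor, had 10.2 to 11.4 FPKM in control, 8.56 to 9.47 in dbdb and 8.86 to 9 in dbR. Its log2 fold change of -0.30 in dbdb vs. control (adjusted p = 0.0115, limma) was -0.16 with mitochondrial transcripts left out of the scaling (adjusted p = 0.195, limma). Irs1, an adaptor of insulin signalling, rose against control by 0.62 in dbdb and 0.57 in dbR on the log2 scale, and Sh2b1, an adaptor that strengthens JAK2 signalling, rose by 0.25 in dbdb vs. control. The call of Sh2b1 was lost in 7 of 17 alternatives, without control replicate 1 or 3, any dbdb replicate or dbR replicate 3 among them (adjusted p up to 0.108, limma). That of Jak2 in dbR vs. control was lost without control replicate 2 or 3 (up to 0.052) and with mitochondrial transcripts left out (0.118). Jak1 passed in dbR vs. control (-0.16, adjusted p = 0.048, limma) but not after scaling to the 75th percentile (-0.11, adjusted p = 0.15, limma), and its call was lost in 12 of 17 alternatives, among them without any control or dbR replicate and without dbdb replicate 2 or 3. Irs2 ranged from 4.12 to 12.7 within the control group and was 6.39 to 7.37 in dbdb.

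Of the 6 other STAT genes 2 passed in dbdb vs. control, where 26.4% of all genes did. Stat5a rose (0.43, adjusted p = 0.0377, limma) and Stat6 fell (-0.24, adjusted p = 0.0126, limma). With mitochondrial transcripts left out Stat6 was at -0.10 (adjusted p = 0.324, limma). Stat5a was 3.62 to 4.23 in control, 4.64 to 6.01 in dbdb and 3.39 to 4.45 in dbR, so the dbR values overlapped control, and the dbR vs. dbdb difference was -0.51 (adjusted p = 0.0955, limma). The call of Stat5a in dbdb vs. control was lost in 7 of 17 alternatives: with no filter (0.0557), without control replicate 1, 2 or 3 or dbdb replicate 2 or 3 (adjusted p up to 0.127, limma), and with the replicate block (0.0501). Stat6 also passed in dbR vs. control (-0.27), except with mitochondrial transcripts left out (0.0862).

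Of 14 other inhibitors 1 passed in dbdb vs. control, where 26.4% of all genes did: Sh2b3, an adaptor that restrains JAK2 signalling, rose by 0.27 on the log2 scale, and was lost without control replicate 2 or dbdb replicate 1 or 2 (adjusted p up to 0.0685, limma). Socs4 and Socs7 passed in dbR vs. control (-0.31 and -0.22), and with mitochondrial transcripts left out neither did (-0.22 and -0.13). Socs4 was also lost without control replicate 2 or 3 or dbR replicate 1 or 3, and Socs7 in 12 of 17 alternatives, without any control or dbR replicate and without dbdb replicate 1 or 2 among them. The growth hormone targets Cish and Socs2 spread widely within the control group, from 1.36 to 12.6 and from 2.83 to 12.5 FPKM, and did not pass (-0.30 and -0.38 in dbdb vs. control). Socs1 was 0.427 to 0.483 in control and 0.265 to 0.576 in dbdb. Ptpn2, the phosphatase most like Ptpn1, was 11.8 to 13.1 in control, 11.5 to 12.6 in dbdb and 12.3 to 13.1 in dbR, with a log2 fold change of -0.04 in dbdb vs. control (adjusted p = 0.714, limma).

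Of 23 tested genes that STAT3 is known to switch on, 11 rose and 0 fell in dbdb vs. control in limma, where 13.1% of all genes rose; 12 of 23 had an unadjusted p under 0.05, against 38.8% of all genes. Their median log2 fold change was 0.32, and the count of rises was 9 to 11 when any library was left out. Cebpb, a transcription factor of the acute phase, rose from 8.77 to 24.9 FPKM (1.48, adjusted p = 0.00335, limma). The fibrinogen chains Fga and Fgg rose by 0.95 and 1.19 on the log2 scale, and Lcn2, a marker of tubular injury, from 0.343 to 0.999 FPKM (1.35, adjusted p = 0.00822, limma). The kinase gene Pim3 (0.95), Timp1 (0.97), Myc (0.77), the cyclin gene Ccnd1 (0.75), the survival genes Mcl1 (0.36) and Bcl2l1 (0.31) and Hif1a (0.32) rose as well. The call of Timp1 was lost in 8 of 16 alternatives, without any control replicate, dbdb replicate 1 or 2 or dbR replicate 3 among them (adjusted p up to 0.129, limma), and that of Bcl2l1 without control replicate 1 or 2 or dbdb replicate 2 or 3 (up to 0.0813). Junb, Bcl3, Pim1 and Vegfa did not pass, with log2 fold changes of 0.00, -0.40, 0.20 and 0.04, and Saa3 was listed at 0 in all libraries. These genes answer other factors too, and phosphorylated STAT3 was not measured. Markers of epithelia also rose in the same dbdb libraries, as did Stat3 and Ptpn1. Of the 3 markers of outer medulla and collecting duct 1 rose, Aqp2, from 28 to 37.1 FPKM in control to 55.3 to 121 in dbdb, and the list summed to 347 to 457 in control, 365 to 594 in dbdb and 442 to 496 in dbR. Of 5 podocyte markers 2 rose, Nphs1 (0.86) and Podxl (0.36), with list sums of 73.4 to 83.8 in control, 86 to 92.3 in dbdb and 79.4 to 96.6 in dbR. Of 5 proximal tubule markers 2 rose, Slc5a12 (0.55) and Slc5a2 (0.42), with list sums of 2212 to 2533, 2349 to 2956 and 2600 to 2717, and Slc5a2 was lost without control replicate 2 or 3 or dbdb replicate 1 or 2. The part of these cells in the levels of Stat3, Ptpn1 and the targets was not tested.

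In dbR mice some of these targets were near control levels and others were at or above dbdb levels. Against dbdb 0 of 23 passed in limma, where 0.743% of all genes did, and 7 of 23 had an unadjusted p under 0.05, beside 17.5% of all genes. Ccnd1 was 117 to 126 in control, 183 to 235 in dbdb and 127 to 157 in dbR, and Mcl1 was 42.1 to 46.2, 52.3 to 63.7 and 39.3 to 43.3. For both, every dbR library was below every dbdb library (-0.56 and -0.43, each with an adjusted p of 0.0516 in limma), and both passed after scaling to the 75th percentile (0.043 and 0.0478). Fga and Fgg stayed high in dbR, at 17.0 to 20.1 and 13.5 to 16.3 FPKM, against 8.34 to 9.10 and 5.51 to 6.50 in control. Of the 23, 5 passed in dbR vs. control, all higher, where 12.3% of all genes did: Fga (1.03), Fgg (1.31), Lcn2 (1.76), Myc (0.76) and Il1r1 (0.56). Myc was lost without dbR replicate 1 (0.0507) and Il1r1 without dbR replicate 2 (0.0593).

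**Figure D4:**
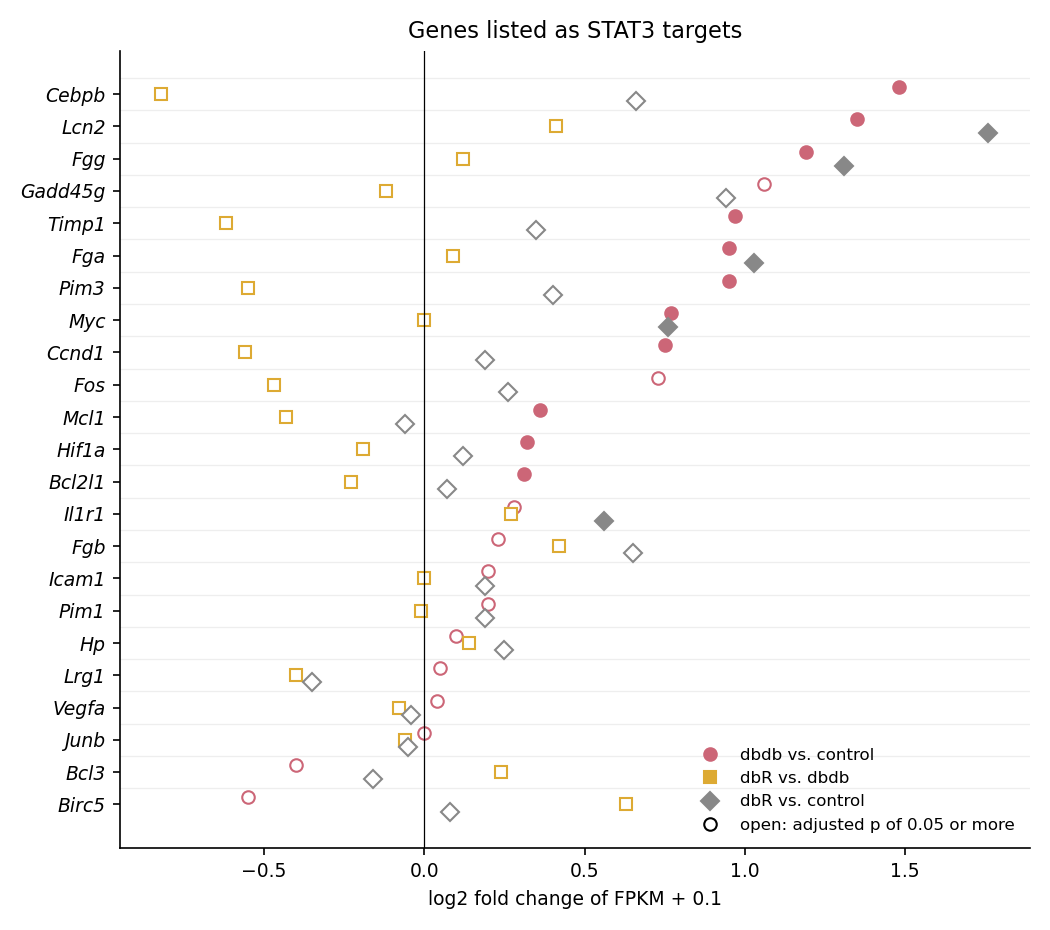
log2 fold change of FPKM + 0.1 (horizontal axis) for the 23 tested STAT3 target genes (vertical axis, by size in dbdb vs. control) in the 3 comparisons; filled symbols passed an adjusted p of 0.05 in limma. Cebpb is highest in dbdb vs. control (1.48) and at -0.82, open, in dbR vs. dbdb, while Fga, Fgg, Lcn2 and Myc are filled in both comparisons with control.

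Genes around Lepr were read because db mice also differ from their controls in the chromosome that carries the allele. Of 40 other genes within 3 Mb of Lepr 26 were tested, and 4 rose and 2 fell in dbdb vs. control, 23.1% of those tested beside 26.4% of all genes. Itgb3bp (0.49), Pde4b (0.38) and Slc35d1 (0.42) were among those that rose, and Ror1 (-0.61) and Oma1 (-0.27) fell. Against control, dbR mice had 4 higher and 3 lower, 26.9% of those tested beside 24.1% of all genes, with Dnajc6 (-0.46), Mier1 (-0.48) and Jak1 among the lower. In dbdb vs. control a left-out library ended the calls of Pde4b (control replicate 2 or 3, dbdb replicate 1), Oma1 (control replicate 1 or 2, dbdb replicate 2) and Ror1 (lost in 9 of 17 alternatives, any control replicate, dbdb replicate 1 or 3 or dbR replicate 2 among them), and in dbR vs. control that of Mier1 (control replicate 2 or 3, dbR replicate 1). Both shares were near those of all genes. Diabetes and the chromosome around db go together in these groups and cannot be told apart.

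Across the 9 libraries the genes whose log2 level followed Lepr most closely, among 11612 genes averaging 1 FPKM or more, were Dok4 (Pearson r = 0.976), Tmem144 (0.971), Crtap (0.971), Srr (0.969) and Bok (0.964). These points fall into a control cluster and a diabetic cluster, and all 5 genes were also lower in every diabetic library than in every control library. Crtap, which encodes a cartilage-associated protein of collagen folding, was 20.6 to 25.7 FPKM in control, 13.0 to 15.8 in dbdb and 13.4 to 15.4 in dbR. For Socs3 the closest were Suv420h2 (0.909), Rassf5 (0.905), Gpsm3 (0.875), Acbd6 (0.87) and Pim1 (0.868). Pim1, itself a STAT3 target, was 1.18 in control replicate 2, where Socs3 was also lowest, and 1.84 and 1.91 in the other control libraries.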

How the data were processed

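Renal cortex RNA, depleted of ribosomal RNA and made into strand-specific libraries, was sequenced from 3 mice per group. Per the labels and methods, the authors aligned reads to GRCm38.p2 with TopHat2 2.0.9 and calculated transcript FPKM with Cufflinks 2.1.1; these deposited FPKM values were used as given. FPKM holds no counts, and Cufflinks divides fragments shared by transcripts, so transcript values are less sure than gene sums.

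log2(FPKM + 0.1) was fitted with limma 3.58.1 (R 4.3.3; lmFit, eBayes with trend) as 1 mean per group, for genes and for transcripts averaging at least 0.1 FPKM, two-sided, with Benjamini-Hochberg adjustment over all features tested. In simulated data, 76.5% of 200 genes changed by 1 on the log2 scale were recovered in dbdb vs. control in the fit of 14537 genes, and 35.5% of 200 transcripts in the fit of 31858 transcripts. Only those 200 were changed, whereas 3840 genes and 2940 transcripts were called in the real dbdb vs. control. These shares therefore do not give the power of that comparison. Shares and ratios were compared by exact permutation. Depth was estimated from the steps of low FPKM values. Python 3.11.15, numpy 2.4.6, pandas 2.3.3, scipy 1.17.1 and matplotlib 3.10.9 were used. Coordinates and transcripts are from GENCODE M21 (GRCm38), promoters from RefSeq.

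The 5 genes, the lists and the tests were chosen with earlier results of these data known. The text names the 5 genes, all Lepr transcripts, list genes that passed in any comparison with up to 4 others per list, genes within 3 Mb of Lepr that passed, and the 5 genes most like Lepr and like Socs3; a few genes that this rule takes in are not reported here. Alternatives were pseudocounts of 0.01 and 1, no filter, a filter at 1 FPKM, 75th percentile scaling, scaling without mitochondrial transcripts, only the compared groups, a replicate block and each library left out. For Stat3 and Leprot, the most abundant transcript alone was added after seeing the data, as was leaving out each library for the ratio of Lepr to Leprot.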

Additional observations from a re-analysis of the deposited data

How the results depend on the processing

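In 303 alternative values of the 18 results on the 5 genes and Lepr-203, 271 kept direction and side of the threshold. The rise of Stat3 and Ptpn1 and the fall of Lepr in dbdb vs. control, and the fall of Lepr in dbR vs. control, kept both under every alternative run, among them, for Stat3, the most abundant transcript alone, which was added after seeing the data (0.79). Direction turned only in differences that had not passed: Lepr in dbR vs. dbdb was 0.01 with a pseudocount of 0.01, 0.02 after scaling to the 75th percentile and -0.17 to 0.28 with a library left out, and Leprot in dbdb vs. control was 0.10 with mitochondrial transcripts left out. With a library left out, Lepr-203 in dbR vs. dbdb was -0.16 to 0.31, and Socs3 was -0.08 to 0.31 in dbdb vs. control and -0.02 to 0.27 in dbR vs. dbdb. The log2 ratio of Lepr to Leprot in dbR vs. dbdb was then -0.40 to 0.07, in an alternative chosen after seeing the data. The difference in the share of Lepr-203, in percentage points, was -20.7 to 1.69 in dbdb vs. control, -9.01 to 13.4 in dbR vs. dbdb and -13.1 to 3.33 in dbR vs. control; in dbR vs. dbdb it was -1.89 to 3.74 for Lepr-202 and -14.2 to 5.27 for Lepr-201. The differences in dbR vs. control that came to pass were Leprot at 0.25 with mitochondrial transcripts left out, Stat3 at 0.44 after scaling to the 75th percentile and 0.39 with only the groups compared, and Ptpn1 at 0.35, at 0.39 with mitochondrial transcripts left out and at 0.30 with only the groups compared. With a library left out they were 0.28 to 0.47 for Stat3 and 0.25 to 0.36 for Ptpn1, and both passed without dbdb replicate 1 or 3. Lepr-203 lost its call in dbR vs. control with only the groups compared (-1.39), and with a library left out it was -1.54 to -1.30 in dbdb vs. control and -1.60 to -1.13 in dbR vs. control. The cause of these changes was not tested.

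Same-numbered mice did not pair: the correlation of their deviations was -0.17 to 0.062 over 9 pairs, and 0 of 9 were over 0.1. With the replicate number as a block, Lepr-203 in dbR vs. control was -1.39 with an adjusted p of 0.0515, genes called in dbR vs. dbdb were 23 in place of 108 and transcripts 0 in place of 4, and no other call on the 5 genes turned. The block also ended the calls of Sh2b1 (adjusted p = 0.071), Stat5a (0.0501) and Timp1 (0.0551) in dbdb vs. control, of Il10ra (0.0662), Jak1 (0.0726) and Socs7 (0.0731) in dbR vs. control and of Pdgfrb (0.0594) in dbR vs. dbdb, and pathway genes called were 21 in place of 24 and 16 in place of 18 against control. Pathway genes called in dbR vs. dbdb were 0 and became 2, Ccnd1 and Mcl1, with a filter at 1 FPKM, after scaling to the 75th percentile and with mitochondrial transcripts left out. Genes called in dbR vs. dbdb were 31 with no filter, 166 with the filter at 1 FPKM, 203 after scaling to the 75th percentile, 22 with only the groups compared and 2 to 141 with a library left out, with 36 and 31 without dbdb replicates 1 and 2 and 70, 2 and 10 without dbR replicates 1, 2 and 3. Transcripts called there were 24 with no filter, 2 with mitochondrial transcripts left out and 0 to 14 with a library left out (8 without control replicate 3, 14 and 1 without dbdb replicates 1 and 3, 0 without dbR replicate 2). Leaving out a library also gave 1739 to 2831 transcripts in place of 2940 in dbdb vs. control (1739 without control replicate 3, 1826 and 1900 without dbdb replicates 2 and 3) and 1511 to 2483 in place of 2644 in dbR vs. control (1514 without control replicate 3, 1599, 1511 and 1552 without dbR replicates 1, 2 and 3). Leaving out mitochondrial transcripts moved the median of all genes in dbdb vs. control to 0.14 and the share of called genes that were higher from 49.5% to 77.1%. In dbR vs. control that share was 51.1%, and became 69.9% without mitochondrial transcripts and 62.3% after scaling to the 75th percentile; in dbR vs. dbdb it was 75.9% and became 50.9% without mitochondrial transcripts. Lepr, Lepr-203 and Socs3 are under the filter at 1 FPKM, which therefore gave no value for them. The few estimated fragments behind Lepr-201 limit what can be said of the long form.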
